A study of Mus musculus with 30 samples.

Results

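Trophoblast markers were followed in mouse embryonic stem cells whose histone chaperone FACT can be removed on demand. The group held 8 genes, Cdx2, Eomes, Tfap2c, Gata2, Gata3, Tead4, Krt8 and Krt18, chosen by name as widely used markers of this lineage and matched by symbol. All 8 were found among the 55291 gene names of the washout counts and among the 21859 genes of each time-course table. The rule used no measured value, but the members were chosen with earlier results of these data known.

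Trophoblast is the first lineage to separate from the inner cell mass, from which embryonic stem cells are derived, and it forms the fetal part of the placenta. In the outer cells of the early embryo TEAD4, with its co-activator YAP1, switches on the caudal homeobox factor CDX2 and the zinc finger factor GATA3, and TFAP2C, EOMES and GATA2 act with or after them. KRT8 and KRT18 are the paired keratins of the first epithelium. Embryonic stem cells keep most of this programme low through OCT4, NANOG and several repressive chromatin complexes.

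TT-seq was used to read transcription: RNA made during a pulse of 4-thiouridine, here 5 min, is purified and sequenced, so that introns contribute to each gene's signal. All cells were of the mouse line E14, kept without feeders in serum with LIF, the GSK inhibitor CHIR99021 and a MEK inhibitor, and all carried an integrated osTIR1 gene, which lets auxin direct a tagged protein to degradation. In the tagged lines SPT16, a subunit of FACT, carried a mini-AID degron with a V5 tag at its C terminus. Of 30 libraries, 22 formed a time course in 11 groups of 2. These were untagged cells at 0 h and after 3, 6 and 12 h of the auxin 3-indoleacetic acid (IAA, 500 nM), tagged cells at 0 h, and tagged cells after the same times in IAA or in ethanol (EtOH), the vehicle. The other 8 formed a washout experiment in 2 independently targeted lines, 10E and 11D, each treated for 12 h with IAA or EtOH and then kept for 24 h in fresh medium, with 2 libraries per line and treatment. The titles name Clone1 and Clone2 in place of these line names, and the labels do not say which is which. Each tagged time-course group is 1 library of each clone, while the untagged groups are numbered replicates. The time-course labels contradict the titles for many libraries in tag and treatment, so those groups rest on the titles. Nothing beyond the line names says that libraries of a group came from separate cultures, and p-values then measure only the spread between these libraries.

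Washout library totals ran from 6547992 to 16554314 counts. The 18S ribosomal locus CT010467.1 took 5.73 to 9.27% of counts in the EtOH libraries and 20.8 to 29.3% in the IAA libraries. The label of stem cells was checked against defining genes: Pou5f1 ran from 91.5 to 150.4 CPM and Esrrb from 1198 to 2402 CPM over the 8 libraries (CPM is the count scaled to a common library size by edgeR's TMM factors). Sox2 was listed at 0 in all of them, and the annotation places it wholly inside Sox2ot on the same strand. The placental genes Prl3d1, Tpbpa, Rhox9 and Rhox4b were at 0 counts in every washout library. They were picked for that value, as the 4 without a count among 24 other trophoblast genes listed. Of the same list Peg10 averaged 20.7 CPM in EtOH and 56.1 in IAA. Plac1 averaged 0.275 and 1.51 CPM, on 63 counts in all, with every IAA library above every EtOH library. Dlx3 went the other way, at 0.594 and 0.109 CPM. Plac1 and Dlx3 had too few counts to be tested.

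The 8 genes lie on 5 chromosomes of the mm10 build. Cdx2 spans chr5:147300805-147307270 on the minus strand, Eomes chr9:118478212-118486132 on the plus strand, and Tfap2c chr2:172549593-172558622 on the plus strand. Gata2 spans chr6:88193891-88207032 (plus) and Tead4 chr6:128224288-128300823 (minus). Gata3 spans chr2:9857078-9890034 (minus), and 19.7% of its length is shared on the same strand with 9230102O04Rik, where reads cannot be given to either gene with certainty. The partner keratins are neighbours: Krt8 at chr15:101996698-102004482 (minus) and Krt18 at chr15:102028180-102032027 (plus) point away from each other, with 23697 bases and no annotated gene between them. Annotated exons cover from 4.70% of the Tead4 body to 52.5% of the Eomes body, so most of the Tead4 body is intron.

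Promoter sequence is shown for 3 members picked by their values below, Gata2 as a call at 12 h and Gata3 and Krt18 by unadjusted p after washout. Sequences are from RefSeq (GRCm38.p6, the assembly of mm10), on the gene's own strand, and end at the base before the transcription start for Gata2 and Gata3 and before the first annotated exon for Krt18. Capitals mark GCCNNNGGC, the palindromic letters bound by TFAP2 factors, of which Tfap2c is a member of the group. The windows are Gata2 at chr6:88193641-88193890, Gata3 at chr2:9878601-9878850 and Krt18 at chr15:102027966-102028179.
Gata2: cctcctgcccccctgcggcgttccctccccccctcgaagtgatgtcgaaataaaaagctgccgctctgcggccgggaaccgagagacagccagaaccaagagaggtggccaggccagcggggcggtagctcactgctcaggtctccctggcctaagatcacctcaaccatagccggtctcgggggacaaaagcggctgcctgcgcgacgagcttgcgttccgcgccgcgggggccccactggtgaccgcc
Gata3: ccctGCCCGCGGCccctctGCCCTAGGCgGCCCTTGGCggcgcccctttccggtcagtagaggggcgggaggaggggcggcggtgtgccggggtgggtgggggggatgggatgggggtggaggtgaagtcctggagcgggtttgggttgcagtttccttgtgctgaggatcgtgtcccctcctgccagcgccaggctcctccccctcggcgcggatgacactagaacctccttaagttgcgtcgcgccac
Krt18: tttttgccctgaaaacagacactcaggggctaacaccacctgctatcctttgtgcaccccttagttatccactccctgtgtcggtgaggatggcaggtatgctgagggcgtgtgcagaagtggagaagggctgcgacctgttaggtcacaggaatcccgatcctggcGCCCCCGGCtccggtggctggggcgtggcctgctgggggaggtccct

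The Gata3 window held 3 matches, which begin at bases 5, 20 and 30 of the printed sequence, and the Krt18 window held 1, which begins at base 168. The printed Gata2 window held no match, which says only that these letters are not in it. Among 32851 RefSeq windows of 250 bases, 13.7% held at least 1 match (both strands; the motif reads alike on each). The Gata2 and Gata3 windows were rich in G and C, at 67.2% and 70.0% against a median of 52.4% for all windows, with 22 and 19 CpG pairs against a median of 6. The Gata3 window lies within an intron of longer annotated Gata3 transcripts and within an exon of Gm13256 on the opposite strand. RefSeq windows were matched for 6 of the 8 members, all but Tfap2c and Tead4. A second Gata2 window lies inside an annotated exon and is not printed, and it held 1 match, which begins at its base 29. The Cdx2 window, also not printed, held 1, which begins at base 235, after the 229 bases before its first annotated exon. Those of Eomes and Krt8 held 0.

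Levels were first set against each other per kb of gene body, as the mean of TMM-scaled CPM per kb over the 8 washout libraries (SD, n = 8). Tead4 stood highest at 2.95 ± 0.655 CPM per kb, percentile 82.2 of the genes that passed the filter on low counts. Krt8 (0.940 ± 0.253), Eomes (0.796 ± 0.238), Tfap2c (0.613 ± 0.148) and Krt18 (0.431 ± 0.159) followed on that scale. Cdx2 (0.260 ± 0.257), Gata3 (0.231 ± 0.0633) and Gata2 (0.0682 ± 0.0511) were lowest, Gata2 at percentile 10.5. Only 2 steps in this order held in 8 of 8 libraries, Tead4 above Krt8 and Gata3 above Gata2. The steps between were within the spread: Krt8 was above Eomes in 2 of 8 libraries although its mean was higher, Eomes above Tfap2c in 6, Tfap2c above Krt18 in 5, Krt18 above Cdx2 in 5 and Cdx2 above Gata3 in 4. Tead4 was thus transcribed well in these cells while the other members lay at or below the middle of the tested genes.

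**Figure D1:**
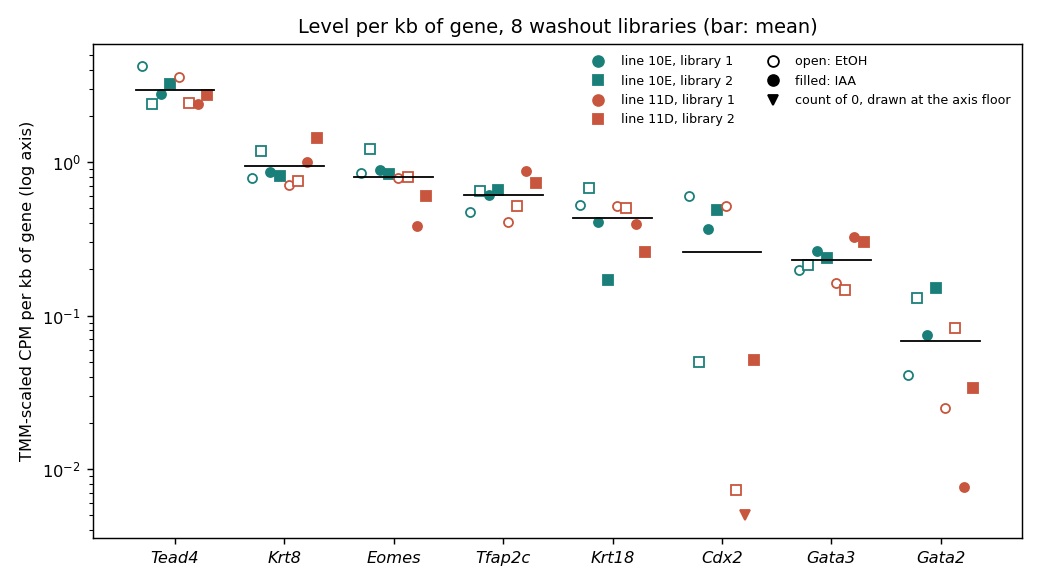
Level of each member in the 8 washout libraries, as TMM-scaled CPM per kb of gene body on a log axis, with open symbols for EtOH, filled for IAA, colour for line, shape for library number and a bar at the mean. Tead4 lies above all others in every library, and Cdx2 spans the widest range, from a count of 0 to 0.598 CPM per kb.

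The washout experiment asked whether the markers differed 24 h after auxin was removed. Of the 8 members 7 passed the filter and none was called (edgeR quasi-likelihood test, IAA minus EtOH, Benjamini-Hochberg FDR of 0.05). Among all 15110 genes tested 8.83% were called higher and 7.6% lower. At an unadjusted p under 0.05 edgeR gave 2 of the 7 members, Gata3 and Krt18, beside 4881 of the 15110 genes. DESeq2 called 1 member higher, Gata3, at an adjusted p of 0.05, beside 2053 of 20252 genes called higher. The median log2 difference was -0.18 over the 7 tested members and -0.05 over all genes tested. Fewer cells of a type and less RNA per cell cannot be told apart in such bulk libraries.

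Tead4, the DNA-binding partner of YAP1, read 320.6 and 181.8 CPM in the EtOH libraries of line 10E and 271.9 and 184.9 in those of line 11D. After IAA it read 210.7 and 244.8 CPM in 10E and 181.3 and 208.5 in 11D. The treatments overlapped, and the high values were the EtOH libraries numbered 1 of both lines. The log2 difference was -0.18 ± 0.21 (SE; 95% interval -0.63 to 0.27; edgeR FDR 0.580).

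Cdx2, the factor that commits cells to trophectoderm, was the most uneven member. In EtOH it read 3.87 and 0.324 CPM in line 10E (50 and 7 counts) and 3.35 and 0.0472 CPM in line 11D (61 and 1 counts). After IAA it read 2.35 and 3.16 CPM in 10E (12 and 24 counts) and 0 and 0.334 CPM in 11D (0 and 3 counts). At the count of 0 the floor of 3 counts is 0.303 CPM, and the exact 95% binomial interval reaches 0.372 CPM. Cdx2 was thus above 2 CPM in 4 libraries, the EtOH libraries numbered 1 of both lines and both IAA libraries of 10E, and under 0.5 CPM in the other 4. Counting error does not span the gap: the exact 95% binomial intervals were 2.87 to 5.10 and 0.130 to 0.667 CPM for the EtOH pair of 10E, and 2.56 to 4.30 and 0.00119 to 0.263 CPM for that of 11D. The treatments overlapped, with a log2 difference of -0.42 ± 1.14 (95% interval -2.92 to 2.08; edgeR FDR 0.831), an interval that runs from 0.132-fold to 4.22-fold. With the EtOH libraries numbered 1 alone as controls the log2 difference was -1.40 (FDR 0.331), and with those numbered 2 alone it was 2.83 (FDR 0.168), a choice made after the values were seen.

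Tfap2c, an AP-2 factor of trophoblast and germ cells, read 4.25 and 5.83 CPM in EtOH and 5.49 and 5.93 in IAA in line 10E. In line 11D it read 3.68 and 4.67 CPM in EtOH and 7.87 and 6.56 in IAA. The groups overlapped only through 1 EtOH library of 10E, and the log2 difference of 0.49 ± 0.25 (95% interval -0.06 to 1.04; edgeR FDR 0.202) was not called.

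Gata3, which acts beside Cdx2 downstream of TEAD4, read 6.57 and 7.08 CPM in the EtOH libraries of 10E and 5.38 and 4.81 in those of 11D. After IAA it read 8.63 and 7.77 CPM in 10E and 10.7 and 10.0 in 11D. Every IAA library lay above every EtOH library, with means of 9.28 ± 1.32 and 5.96 ± 1.05 CPM (SD, n = 4). How many of all genes separate in this way was not counted. The log2 difference of Gata3 was 0.64 ± 0.23 (95% interval 0.14 to 1.14; edgeR FDR 0.0750), outside the threshold. DESeq2 gave 0.66 with an adjusted p of 0.0419. The exact permutation test, over all 70 splits without regard to line, gave p = 0.0286, two-sided, beside an unadjusted edgeR p of 0.0156. The permutation p is the smallest that 4 against 4 allows and only restates the separation of the groups. The authors' deposited table for the washout lists 0.66 with an adjusted p of 0.0700. Without the 18S locus and the mitochondrial genes edgeR gave 0.64 (FDR 0.0752), and with scaling by library size alone 0.04 (FDR 0.899), where the median of all genes moved from -0.05 to -0.66.

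Gata2, a relative of Gata3 active in later trophoblast, read 0.541 and 1.71 CPM in EtOH and 0.981 and 1.98 in IAA in line 10E. In line 11D it read 0.329 and 1.09 CPM in EtOH and 0.101 and 0.445 in IAA. It rested on 1 to 37 counts per library and did not pass the filter, so it has no test in the edgeR fit. For Gata2 the authors' deposited table for the washout lists -0.38 ± 0.75 (SE, adjusted p = 0.792). The treatments overlapped, and in each of the 4 pairs of libraries of 1 line and treatment the library numbered 2 read higher. Eomes, a T-box factor of trophoblast stem cells and also of mesendoderm, read 6.73 and 9.62 CPM in EtOH and 7.06 and 6.59 in IAA in 10E, and 6.26 and 6.37 in EtOH and 3.03 and 4.78 in IAA in 11D. Its groups overlapped, with both IAA libraries of 11D below all others (log2 difference -0.45 ± 0.30; 95% interval -1.10 to 0.19; edgeR FDR 0.314).

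Neither of the paired keratins of the trophectoderm was called. Krt8 read 6.11 and 9.12 CPM in EtOH and 6.67 and 6.32 in IAA in 10E, and 5.49 and 5.85 in EtOH and 7.77 and 11.2 in IAA in 11D. Its groups overlapped, at a log2 difference of 0.27 ± 0.27 (95% interval -0.31 to 0.85; edgeR FDR 0.514). Krt18 read 2.01 and 2.59 CPM in EtOH and 1.57 and 0.659 in IAA in 10E, and 1.98 and 1.93 in EtOH and 1.51 and 1.00 in IAA in 11D. Every IAA library lay below every EtOH library, at 1.19 ± 0.434 against 2.13 ± 0.310 CPM (SD, n = 4), a separation not counted over all genes. The log2 difference was -0.85 ± 0.38 (95% interval -1.67 to -0.04; edgeR p = 0.0421, FDR 0.139), with an exact permutation p of 0.0286. For Krt18 the authors' deposited table for the washout lists -0.84 with an adjusted p of 0.239.

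**Figure D2:**
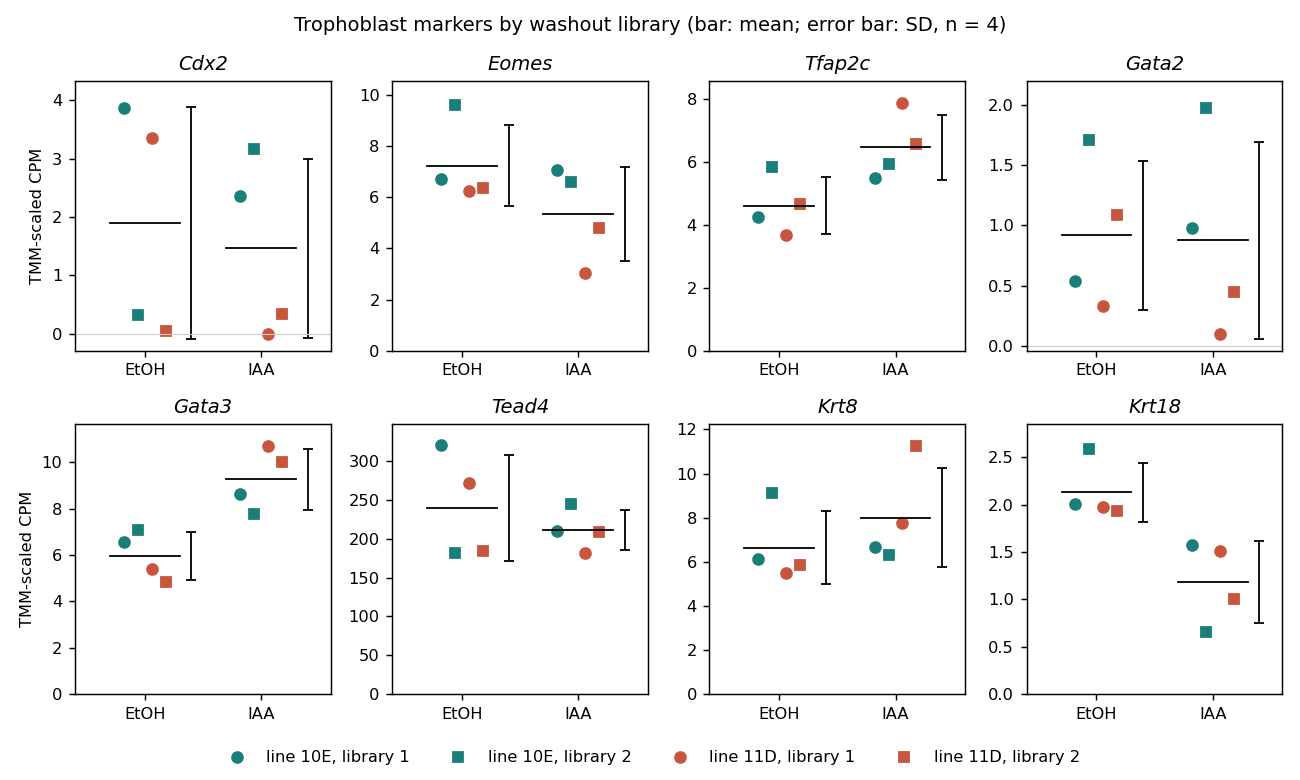
TMM-scaled CPM of each member in the 8 washout libraries by treatment, with colour for line, shape for library number, a horizontal bar at the mean and an error bar of 1 SD (n = 4). Gata3 in IAA lies above, and Krt18 in IAA below, every EtOH library, and Cdx2 in EtOH splits into 2 high and 2 low libraries. The share of all genes that separate by treatment was not counted.

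The scaling decided whether further members passed the threshold. With library-size scaling alone, Tead4 (-0.80, edgeR FDR 0.00389), Eomes (-1.11, FDR 0.00999) and Krt18 (-1.44, FDR 0.0139) were called lower, as were 7422 of the 15110 genes tested. Relative to the all-gene median of -0.66 under that scaling, these log2 differences are of the size of the TMM values.

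The lines were also compared. No member and no gene at all was called for the interaction of line and treatment (edgeR; 0 of 16517 genes, or 0%), although 2345 genes had an unadjusted p under 0.05 and DESeq2 called 35 higher and 101 lower. None of the 8 members had an unadjusted p under 0.05 there. Krt8 came nearest, with a treatment difference 0.97 ± 0.47 larger on the log2 scale in 11D than in 10E (edgeR FDR 0.371), and Gata3 followed at 0.76 ± 0.41 (edgeR FDR 0.417). Within line 11D, Gata3 differed by 1.02 ± 0.32 (edgeR FDR 0.118), Tfap2c by 0.79 ± 0.36 (FDR 0.265) and Krt8 by 0.74 ± 0.34 (FDR 0.264). Within line 10E the same genes gave 0.29 ± 0.41 (FDR 0.647), 0.21 ± 0.46 (FDR 0.786) and -0.20 ± 0.42 (FDR 0.768). The share of genes called was 1.76% higher and 1.04% lower within 11D, and 11.4% higher and 10.5% lower within 10E.

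Between the lines themselves, in a fit with treatment as a term that was added after the values were seen, 0% of genes were called by edgeR and 631 had an unadjusted p under 0.05. The 1 member among these was Eomes, at 7.50 ± 1.43 CPM in 10E and 5.11 ± 1.57 in 11D (SD, n = 4; log2 difference 11D minus 10E of -0.57 ± 0.26, edgeR FDR 1.00). Gata2 read 1.30 ± 0.659 CPM in 10E and 0.490 ± 0.422 in 11D (edgeR FDR 1.00).

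**Figure D3:**
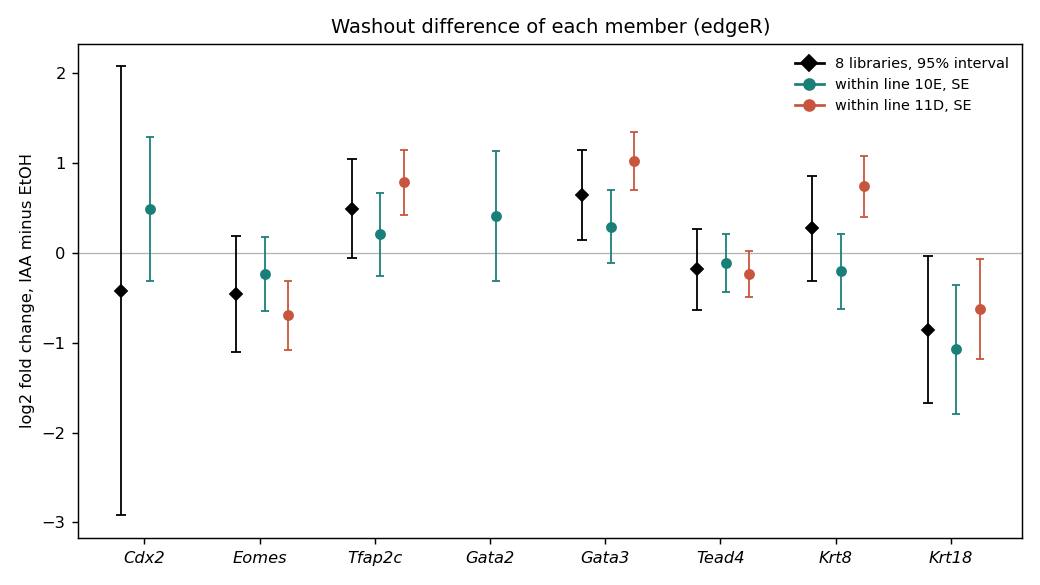
Log2 fold change (IAA minus EtOH, edgeR) of each member, black for 8 libraries with a 95% interval and coloured for each line alone with its SE. The interval lies above 0 for Gata3 and below 0 for Krt18 before adjustment over genes, Gata2 has no value over 8 libraries, and Cdx2 and Gata2 have none within 11D because they did not pass the filter.

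The split of Cdx2 followed the library number among the EtOH libraries. In a fit added after the values were seen, the EtOH libraries numbered 2 differed from those numbered 1, with line as a term, by -4.83 ± 1.11 on the log2 scale for Cdx2 (edgeR FDR 0.123). The same contrast gave -0.70 ± 0.20 for Tead4 (edgeR FDR 0.167) and 1.67 ± 0.72 for Gata2 (edgeR FDR 0.297). No member was called. Of 16517 genes only 2, or 0.0121%, were called higher and 0% lower, but 2737 had an unadjusted p under 0.05, among them 3 of the 8 members. Cdx2 ranked 277th of all genes by p. In the IAA libraries the same contrast gave 0.80 ± 1.08 for Cdx2 and 0.21 ± 0.20 for Tead4 (edgeR FDR 1 for both), with no gene called and 155 genes at an unadjusted p under 0.05.

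Cdx1 and Brachyury, described here after their values were seen, were split alike. Cdx1, a homologue of Cdx2 and a Wnt target, read 147.4 and 41.2 CPM in EtOH and 99.1 and 88.3 in IAA in 10E, and 114.5 and 33.4 in EtOH and 46.3 and 60.6 in IAA in 11D. The EtOH libraries numbered 2 were lower by -1.82 ± 0.26 on the log2 scale (edgeR FDR 0.0885). Brachyury (T), a primitive streak factor, read 3.56 and 0.139 CPM in EtOH and 6.67 and 4.35 in IAA in 10E, and 2.58 and 0.283 in EtOH and 0.504 and 0.667 in IAA in 11D. It was the 1 of 2 tested genes of the mesoderm and streak list at an unadjusted p under 0.05 in this contrast. The summed CPM of that list was 4.95 and 3.84 in the EtOH libraries numbered 1, mostly T itself, and 2.45 and 1.18 in those numbered 2. Other genes of the list did not share the split. In EtOH Mixl1 read 0.464 and 0.694 CPM in 10E and 0.0549 and 0.236 in 11D. Gsc read 0.155 and 0.787 in 10E and 0.0549 and 0.0944 in 11D. Kdr read 0.774 and 0.833 in 10E and 1.15 and 0.566 in 11D. Mesp1 and Foxf1 of the list were at 0 in every library. Of the stem cell list 4 of 9 tested genes, among them Esrrb, were lower in the libraries numbered 2 at an unadjusted p under 0.05. The part of these markers in the Cdx2 and Tead4 values was not tested.

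The genes most like each member over the 8 washout libraries were named by Pearson's r of log2 CPM, as a description without a test, and they share library, depth and scaling with it. For Cdx2 these were Atp6v0a1 (r = 0.989), Unk (0.982) and Jam3 (0.980). Jam3 shows the shape at a higher level, with 155.2 and 77.8 CPM in EtOH and 124.6 and 133.3 in IAA in 10E, and 155.6 and 73.3 in EtOH and 63.3 and 77.3 in IAA in 11D. For Tead4 they were Tbcel (0.990), Abr (0.985) and Trim71 (0.979), and Trim71 was likewise highest in the 2 EtOH libraries numbered 1, at 1053 and 915 CPM. Genes near Gata3 included H2bc7 (0.968) and Gm15417 (0.964), and Tfap2c was nearest to Cfap300 (0.964), Eng (0.964) and Homer2 (0.957). Eomes was nearest to Col13a1 (0.957), Ap5s1 (0.955) and Smim10l2a (0.924). Krt8 was nearest to B4galnt1 (0.972), H3c3 (0.960) and Gstp1 (0.949), and Krt18 to Lysmd4 (0.977), Smim1 (0.972) and Msantd1 (0.970). No gene was named for more than 1 member, so the lack of a shared gene says little of the 2 keratins.

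The time course is known here only through the authors' deposited tables, 1 per time point, whose fold changes are shrunken toward 0. They do not state which groups were compared or in which direction, so values are given as signed, with no libraries beside them. At 12 h the authors' deposited table calls 2 of the 8 members at an adjusted p of 0.05, 1 positive and 1 negative, where 8.58% of all genes with an adjusted p were positive and 12.1% negative. Their signs were positive for 6 of 8 members, with a median of 0.30 against 0.01 for all genes, in the authors' deposited table for that time.

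Gata2 was the positive call. The authors' deposited table for 12 h lists Gata2 at a log2 fold change of 1.95 ± 0.48 (SE, adjusted p = 0.000124). Its mean normalised count there was 46.2, at percentile 35.0 of the genes with a mean above 0. The authors' deposited tables for the earlier times list it near 0, at 0.01 ± 0.12 (3 h, no adjusted p) and 0.02 ± 0.20 (6 h, adjusted p = 0.905). Tead4 was the negative call, at -1.19 ± 0.35 (adjusted p = 0.00102) and a mean normalised count of 4960 in the authors' deposited table for 12 h. Its sign was also negative before that, at -0.08 ± 0.15 (adjusted p = 0.538) and -0.35 ± 0.48 (adjusted p = 0.189) in the authors' deposited tables for 3 and 6 h. Tead4 and Gata2, the members with the highest and the lowest level per kb in the washout libraries, thus had opposite signs at 12 h. A relation of level to sign was not tested. In the authors' deposited table for 12 h Krt18 had a lower mean normalised count, 17.7, and Cdx2, also low per kb, had a negative sign (-0.10).

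The other 6 members were not called at 12 h. The authors' deposited table for 12 h gives Krt8 0.88 ± 0.52 (adjusted p = 0.0678) and its partner Krt18 0.30 ± 0.49 (adjusted p = 0.423). Gata3 stands at 0.60 ± 0.38 (adjusted p = 0.126) and Tfap2c at 0.30 ± 0.34 (adjusted p = 0.440), again from the authors' deposited table for 12 h. For Cdx2 and Eomes the authors' deposited table for 12 h gives -0.10 ± 0.41 (adjusted p = 0.807) and 0.03 ± 0.39 (adjusted p = 0.953). The best-known trophectoderm factor was thus not among the genes called at any time.

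At 6 h no member was called, where the authors' deposited table has 1.71% of genes positive and 1.39% negative. The value farthest from 0 there was that of Tfap2c, which the authors' deposited table for 6 h lists at 0.63 ± 0.55 (adjusted p = 0.134). At 3 h, 6 of the 8 had an adjusted p and none was called, beside 0.531% of genes positive and 0.0458% negative in the authors' deposited table. Of these Cdx2 had the smallest p, 0.0366, and the authors' deposited table for 3 h lists it at -0.05 ± 0.14 (adjusted p = 0.356).

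At 0 h no member was called either, where the authors' deposited table has 0.0201% of genes positive and 0.355% negative. Unadjusted p-values under 0.05 were found for 3 of the 8 members against 3.94% of all genes in the authors' deposited table for 0 h. These were Cdx2 (p = 0.00292, adjusted p = 0.328, negative), Eomes (p = 0.00387, adjusted p = 0.379, positive) and Krt8 (p = 0.0132, adjusted p = 0.706, positive), all from the authors' deposited table for 0 h. Only Eomes kept a size after shrinkage, 0.58 ± 0.59 in the authors' deposited table for 0 h, and the fold changes of the other 7 were shrunken to within 0.001 of 0.

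**Figure D4:**
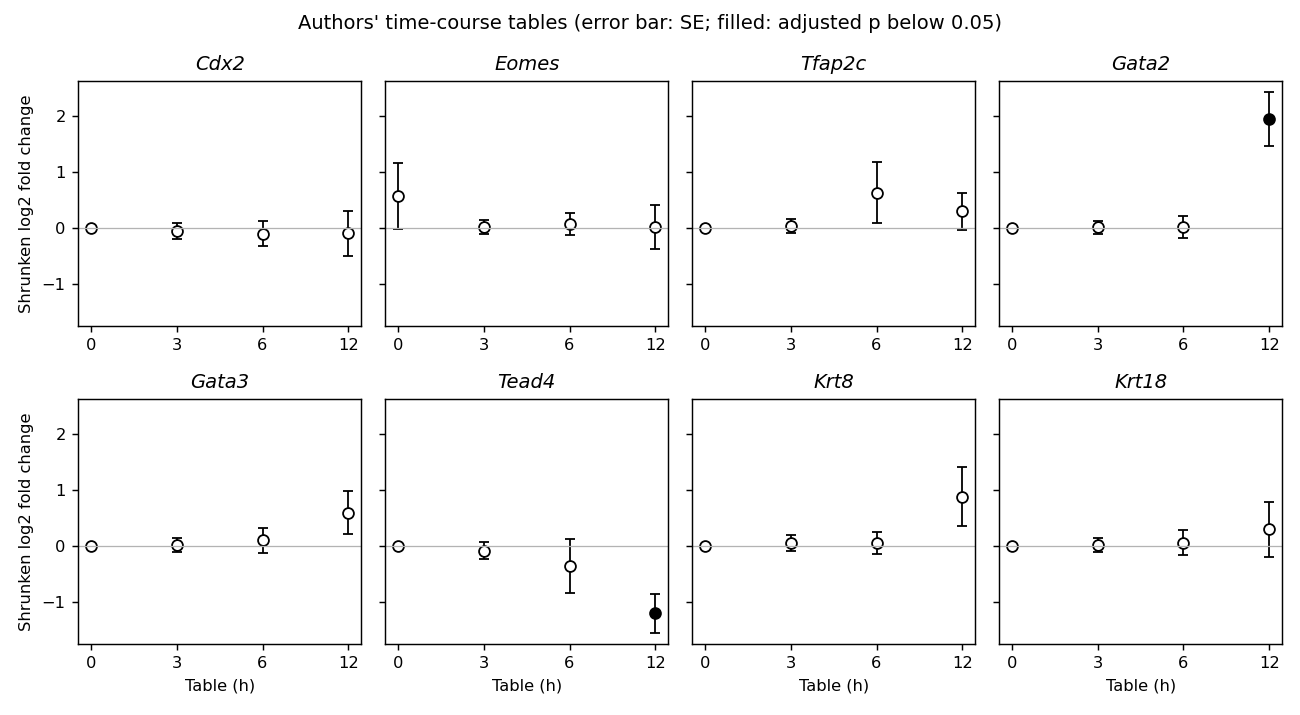
Shrunken log2 fold change of each member in the authors' deposited tables for 0, 3, 6 and 12 h, with the SE as error bar and a filled symbol where the adjusted p was under 0.05. Gata2 (positive) and Tead4 (negative) are the 2 filled points, both at 12 h.

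Promoter upstream transcripts (PROMPTs) were listed by the authors for 6 of the 8 members. In the authors' deposited tables the mean normalised count ran from 1.97 to 5.92 for the Eomes entry, from 1.56 to 1.92 for Tfap2c and from 0 to 0.719 for Cdx2. Among the PROMPT entries with a mean above 0 in the authors' deposited tables, Eomes lay at percentiles 70.6 to 85.5 and Tfap2c at 53.4 to 72.5. Gata2 was listed at 0 in all 4 of the authors' deposited tables of PROMPTs, and Krt18 and Tead4 at no more than 0.136 and 0.0921. Gata2, the positive call at 12 h, thus had an upstream entry without a count.

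Genes around the members in the pathway were read from 5 lists. The shares to read their counts against are those of all genes, 8.83% higher and 7.6% lower after washout, and 8.58% positive and 12.1% negative in the authors' deposited table for 12 h. Among TEAD co-factors and Hippo kinases, 0 of 13 tested genes were called after washout (edgeR), the smallest p being that of the kinase gene Stk4 (0.49 ± 0.17, FDR 0.0686). At 12 h, 1 of 13 was positive and 4 negative in the authors' deposited table. The negative ones were Yap1 (-0.87 ± 0.31, adjusted p = 0.00769), the co-activator of TEAD4 itself, with Nf2, Stk3 and Amotl2, and the positive one was the angiomotin gene Amot (0.79 ± 0.33, adjusted p = 0.0271), per the authors' deposited table for 12 h. Yap1 and Tead4 thus carried the same sign at 12 h. None of the 13 was called at 0, 3 or 6 h in the authors' deposited tables, with the smallest p for Amot, Vgll4 and Stk3.

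Of the relatives of the members, 0 of 8 tested were called after washout (edgeR), with the smallest p for Tfap2a (0.25 ± 0.17, FDR 0.333). At 12 h 0 of 16 were positive and 2 negative in the authors' deposited table: Tead1 (-1.24 ± 0.41, adjusted p = 0.00248), the most abundant TEAD gene here, and Tbr1 (-1.70 ± 0.68, adjusted p = 0.00644), a T-box relative of Eomes. No relative was called at 0, 3 or 6 h in the authors' deposited tables, where Gata4, Tead1 and Tbr1 had the smallest p. Other trophoblast genes gave 1 higher and 0 lower of 11 tested after washout, the placental imprinted gene Peg10 at 20.7 ± 4.24 CPM in EtOH and 56.1 ± 4.39 in IAA (SD, n = 4; log2 difference 1.44 ± 0.18, edgeR FDR 0.000433). At 12 h 2 of 16 were positive and 2 negative in the authors' deposited table, Id2 (4.47 ± 0.38) and the protease gene Furin (1.04 ± 0.43) against Fgfr2 (-0.78 ± 0.24), the FGF receptor of trophoblast stem cells, and Ets2 (-0.61 ± 0.23). Furin (1.18 ± 0.35) and Fgfr2 (-0.54 ± 0.19) already had these signs and calls at 6 h in the authors' deposited table, none was called at 3 h, where Furin had the smallest p, and at 0 h Peg10 (1.28 ± 0.33) was positive and Plet1 (-1.45 ± 0.40) negative in the authors' deposited table.

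The epithelial genes of trophectoderm gave 3 higher and 0 lower of 19 tested after washout, where 8.83% of all genes were higher and 7.6% lower. Among them were the water channel Aqp3 (1.32 ± 0.20, edgeR FDR 0.00163) and the tight junction gene Tjp1 (0.73 ± 0.18, FDR 0.0176), with a list median of -0.06. At 12 h 6 of 20 were positive and 2 negative in the authors' deposited table, beside 8.58% and 12.1% of all genes, led by the claudins Cldn7 (1.75 ± 1.00) and Cldn6 (1.71 ± 0.68) and by Aqp3 (1.41 ± 0.35), all positive. Aqp3 was also the 1 gene of the list called at 3 h (1.20 ± 0.22) and at 6 h (0.81 ± 0.36) in the authors' deposited tables, and none was called at 0 h, where Ocln had the smallest p. The list of factors known to hold trophoblast genes down gave 3 higher and 0 lower of 17 tested after washout, the NuRD helicase Chd4 (1.17 ± 0.21, edgeR FDR 0.00373), the co-repressor Trim28 (1.02 ± 0.20, FDR 0.00678) and the H3K9 methyltransferase Setdb1 (0.79 ± 0.15, FDR 0.00605). At 12 h 0 of 18 were positive and 7 negative in the authors' deposited table, beside the same 8.58% and 12.1%, with Sumo2 (-1.77 ± 0.37) and the Polycomb genes Suz12 (-1.14 ± 0.27) and Eed (-0.91 ± 0.25) followed by Nanog (-0.77 ± 0.34). Sumo2 (-0.87 ± 0.29) and Eed (-0.63 ± 0.19) were the 2 negative at 6 h in the authors' deposited table, and none was called at 0 or 3 h, where Nanog and Trim28 had the smallest p.

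Markers of other cell types were read beside the members. The shares to set their counts against were 8.83% of all genes tested called higher and 7.6% lower. These lists are short, and counts of 0 to 2 genes say little against such shares. After washout 2 of 5 tested primitive endoderm markers, 1 of 2 of mesoderm and streak, 1 of 2 of surface ectoderm and the 1 tested two-cell-like marker were called higher (edgeR), beside 0 of 7 of the trophoblast list and 0 of 9 of the stem cell list. The summed CPM of the two-cell-like list was 1.42 to 2.78 in EtOH and 10.2 to 25.3 in IAA, and that of surface ectoderm, whose cells also use Gata3, Tfap2c and keratins, 32.3 to 55.9 and 54.6 to 65.4. For primitive endoderm the summed CPM was 30.6 to 43.5 and 38.6 to 47.6, and for mesoderm and streak 1.18 to 4.95 and 3.43 to 12.0. Grhl3 alone made up most of the surface ectoderm sum, at 31.2 to 51.7 CPM in EtOH and 49.4 to 62.7 in IAA, while Trp63 differed by -0.25 ± 0.55 on the log2 scale (edgeR FDR 0.786). Of the keratins of that list, Krt5 was at 0 in 7 of the 8 libraries and Krt14 in 6, with their only counts in IAA libraries of 10E. Krt15 was at 0 in every EtOH library. In IAA Krt15 read 3.14 and 1.98 CPM in 10E and 0.706 and 0.222 in 11D, on 40 counts in all, and it did not pass the filter. The sum of the 8 trophoblast markers, 209.7 to 350.7 CPM in EtOH and 212.2 to 277.2 in IAA, was mostly Tead4 (181.8 to 320.6 and 181.3 to 244.8) and says little of the other 7. The part of these cell types in the Gata3 value was not tested.

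At 12 h, the time of the Gata2 and Tead4 calls, markers of other cell types were called as well. Of all genes, 8.58% were positive and 12.1% negative at that time, per the authors' deposited table for 12 h. In lists this short, counts of 0 to 2 genes say little against such shares. Of the stem cell list 0 of 10 were positive and 5 negative in the authors' deposited table, the naive factors Esrrb (-2.05 ± 0.35) and Zfp42 (-1.85 ± 0.25) farthest from 0. The authors' deposited table for 12 h has 3 of 6 neural markers positive, 2 of 5 two-cell-like markers, 1 of 4 of mesoderm and streak and 0 of 3 of surface ectoderm, with none negative in these 4 lists. Primitive endoderm markers were 2 positive and 1 negative of 8 there, Dab2 (1.72 ± 0.51) and Pdgfra (1.03 ± 0.46) against Hnf4a (-1.37 ± 0.35), per the authors' deposited table. The part of these markers in the Gata2 and Tead4 values was not tested.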

How the data were processed

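The washout files hold raw read pair counts per gene, made by the authors with featureCounts 2.0.1 over whole genes on the reverse strand, per the file headers. STAR, deepTools and mm10 are named in the submitters' processing notes. Time-course tables, deposited by the authors, give log2 fold changes with SE, p-values with adjusted p-values, and a mean normalised count, a signal over libraries. The software behind them is not given in the sources used here. Tables of eRNAs and DNase-hypersensitive sites were not used here.

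Counts were tested with edgeR 4.0.16 in R 4.3.3 (filterByExpr, TMM, quasi-likelihood, two-sided), IAA against EtOH without a block, with DESeq2 1.42.0 as an alternative. Every fit ran on all genes, with Benjamini-Hochberg adjustment. Permutation tests used log2(CPM + 0.1). Like-pattern genes used a prior count of 2. Code was tested on simulated data. Intervals and floors (3 counts, 95%) cover counting error only.

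The members and lists were chosen with earlier results of these data known. All 8 members are named. From each other list up to 4 called genes per comparison with the largest fold change are named, or the 1 with the smallest p where none passed, and the 3 most correlated genes for each member with a mean of at least 1 CPM. Cdx1, T, Amotl2 and the cell type markers are named, and Jam3 and Trim71 described further, because of their values. Line pairs the samples by design. Same-numbered EtOH and IAA libraries of a line deviated together in 1 of 4 pairs (correlation 0.345 over genes for 10E 1) and not in the other 3 (-0.497, -0.315 and -0.0266), so numbers were not taken to pair them. Some genes that the rule would name are not reported here.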

Additional observations from a re-analysis of the deposited data

Results flagged for a closer look

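In 2 of 16 groups of 4 washout libraries 1 value lay far from the other 3 relative to the group's range (Dixon's test at 95%, which chance alone meets in about 1 of 20 groups). Both were the second EtOH library of line 10E. Eomes read 9.62 CPM there against 6.26 to 6.73 CPM in the other EtOH libraries. Krt18 read 2.59 CPM there against 1.93 to 2.01 CPM. Without that library the log2 difference between IAA and EtOH was -0.29 for Eomes and -0.75 for Krt18 (edgeR FDR 0.291), and no member was called.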

How the results depend on the processing

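No result reversed as a call under the alternatives run. After washout no member was called in any edgeR alternative except library-size scaling alone, which called 3 lower (433 genes higher, 7422 lower), and DESeq2 called 1 member higher (2053 genes higher). Without a filter 1925 genes were lower, and with the EtOH libraries numbered 1 alone as controls, chosen after the values were seen, 601 were lower. In the paired fits, line as a block gave 1228 genes higher and 1074 lower and changed no call of a member, and line with number as a block gave 829 and 638. Line and number as separate terms, added after the values were seen, gave 1211 and 982. Leaving out each library gave 799 to 1432 genes higher and 593 to 1209 lower, with 0 members. The counts moved most without the IAA library 10E 1 (799 higher, 616 lower), the EtOH library 10E 2 (593 lower) and the IAA library 10E 2 (729 lower). The interaction gave 183 higher and 238 lower with no filter, 35 and 101 by DESeq2, and 0 to 17 and 0 to 18 on leaving out a library (17 and 14 without EtOH 10E 1, 1 and 18 without EtOH 11D 1, 5 and 2 without EtOH 11D 2), again with 0 members. At 12 h the authors' deposited table gave 2 positive members at an adjusted p of 0.1 and 0 among genes whose mean count reached 100, since Gata2 is below it. Gata3 ran from 0.04 to 1.02 on the log2 scale, Krt18 from -1.44 to -0.63 and Eomes from -1.11 to -0.22, each with 1 sign in 21 of 21 settings. Tead4 and Tfap2c kept their sign in 20 of 21, Krt8 in 19 of 21 and Cdx2 in 15 of 20. The settings reuse the same washout libraries and are not independent. The cause of these shifts was not tested. Depth limits Cdx2 and Gata2 most, at 0 to 61 and 1 to 37 counts per library.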
